A study of Bos grunniens with 6 samples.

Results

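The miR-199 and miR-214 miRNAs and the opposite-strand miR-3120 were followed in cultured cells of yak (Bos grunniens) skin. Members were bta-miR-199a-3p, bta-miR-199a-5p, bta-miR-199b, bta-miR-199c, bta-miR-214 and bta-miR-3120, the 6 entries of the deposited table whose cattle name, without the arm, is miR-199a, miR-199b, miR-199c, miR-214 or miR-3120, out of 2853 entries, of which 757 have cattle names and 2096 are predicted. Small RNA was sequenced from dermal papilla cells, the mesenchymal cells of the follicle's base (papilla cells from here on), and from hair matrix cells, the dividing epithelial cells around them (matrix cells), with 3 libraries each. All cells were wild type, isolated and cultured. Both kinds grew in the same DMEM/F12 medium with 10% serum, 1% penicillin-streptomycin, 10 ng/mL IGF1 and 20 ng/mL EGF. The labels call the libraries biological replicates and name no animals or separate cultures, so p-values measure only the spread between these libraries, which may be technical. The question put by the series title is how miRNA profiles compare between the cell types.

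Values are RPM, which scales each library to the same total, and are not divided by length, which is 20 to 23 bases for the members. The scaling totals were 23904796 to 24693655 reads per library, and listed entries took 71.7% to 73.5% of them. The limit that a count of 0 allows, taken as 3 reads, is 0.121 to 0.125 RPM and covers counting error only.

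A mature miRNA is cut from 1 arm of a hairpin, the 5p or the 3p arm, and finds its target mRNAs mainly through its seed. In mammals miR-199a and miR-199b come from hairpins on the strand opposite to dynamin genes, and a copy of miR-199a shares a long transcript with miR-214 inside the gene DNM3. This transcript is known from mesenchymal cells and skeletal development, where the transcription factor TWIST1 drives it. miR-3120 is read from the other strand of the miR-214 hairpin and is known from neurons. Genome positions of these entries were not analysed here.

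The listed sequences are shown 5′ to 3′ as DNA with the seed, bases 2 to 8, in capitals, because they decide which entries can share targets or reads.
bta-miR-199a-5p: cCCAGTGTtcagactacctgtt
bta-miR-199b: cCCAGTGTttagactatctgttc
bta-miR-199a-3p: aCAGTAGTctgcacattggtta
bta-miR-199c: tACAGTAGtctgcacattgg
bta-miR-3604: tAACCAATgtgcagactactgt
bta-miR-214: aCAGCAGGcacagacaggcagt
bta-miR-3120: cACAGCAAgtgtagacaggca

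miR-199a-5p and the entry listed as miR-199b share a seed and 20 of 22 aligned bases. They differ by C10T and C17T, where positions count from 1 at the 5′ end of miR-199a-5p, its base comes first and that of miR-199b last. All 19 aligned bases of miR-199c match miR-199a-3p, but miR-199c starts 1 base earlier. Its seed is therefore shifted against that of miR-199a-3p. Reads of such near-identical entries could be divided between them by the authors' counting, so the level of each alone is uncertain. No other of the 2853 entries shared the seed of miR-199a-3p, miR-199c, miR-214 or miR-3120.

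The same search showed which entries lie opposite each other in sequence. miR-3604, which is not among the 6 members, is the exact reverse complement of miR-199a-3p over all 22 bases. miR-3120 resembles miR-214 on the same strand, at 16 of 20 aligned bases, and its reverse complement matched none of the other entries within 1 mismatch over at least 18 bases. In mammals the miRNA that miR-3120 complements is the 5p arm of the miR-214 hairpin, whereas the miR-214 listed here is the 3p arm. Whether the authors' counting used strand is not given in the sources used here, and without strand, reads of an entry and of its complement cannot be told apart.

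All 6 members were far higher in papilla cells than in matrix cells. The ratio of mean RPM was 56.8 to 74.8 across them, and in each the lowest papilla library lay 44.4 to 65.9 times above the highest matrix library. Together they made up 3.46% ± 0.0751 (SD, n = 3) of listed reads in papilla cells and 0.0483% ± 0.00545 (SD, n = 3) in matrix cells. In bulk samples, fewer cells of a type and less RNA per cell cannot be told apart. Testing with limma took in entries that reached 1 RPM in 3 or more libraries and ran on log2(RPM + 1), a scale that understates the change of low entries. Calls needed a Benjamini-Hochberg adjusted p under 0.05 and a 2-fold change. All 6 members were among the 503 entries tested, and all 6 were called higher in papilla cells, where 25.2% of the entries tested were. edgeR and DESeq2 on whole reads called them too, with 28.4% and 30.0% of entries called in this direction. Their libraries did not overlap, which held in this direction for 41.7% of the entries tested. The median log2 change was 5.88 for the members and -0.01 for all entries tested. Of the members, 5 reached 1 RPM in all 6 libraries. miR-3120 reached it in papilla libraries only, so its direction follows from the filter.

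**Figure D1:**
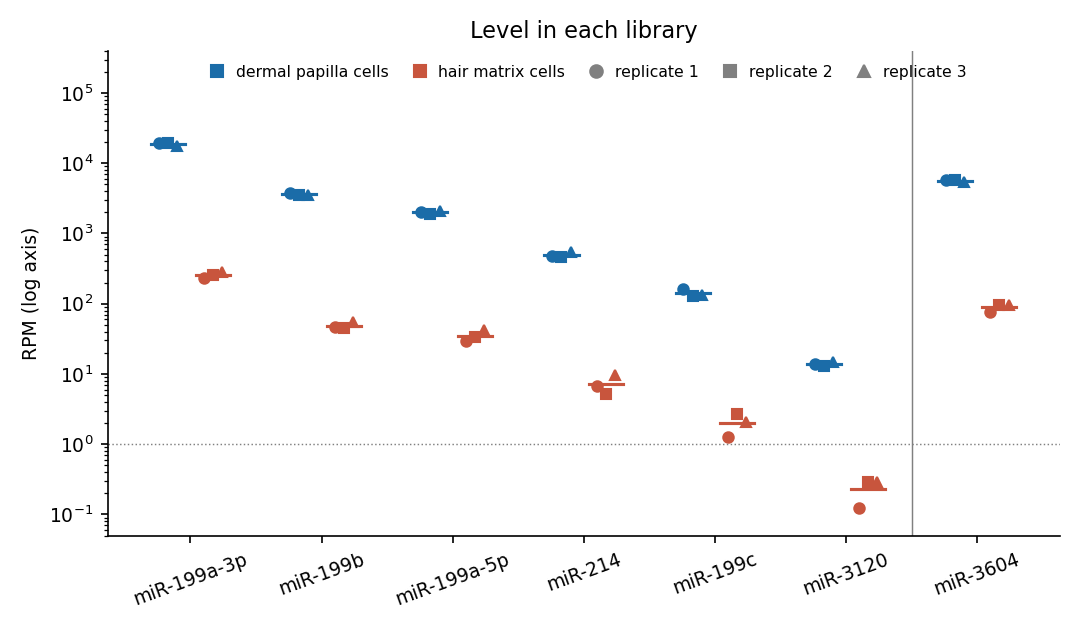
RPM on a log axis for the 6 members and, right of the grey line, miR-3604, with 1 point per library, marker shape for the replicate number and a bar at the mean of 3 libraries. Papilla libraries lie above matrix libraries for every entry shown, and only miR-3120 in matrix cells lies under the dotted line at 1 RPM.

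miR-199a-3p led the members in abundance, with 19276, 19496 and 17869 RPM in papilla replicates 1 to 3 and 232, 259.6 and 280.2 RPM in matrix replicates 1 to 3. The groups were thus 2 narrow bands with a gap of 63.8-fold between the nearest libraries. Its mean was 18880.3 ± 883 RPM (SD, n = 3) against 257 ± 24.0 RPM (SD, n = 3), a 73.4-fold difference (log2 change 6.19 ± 0.07, SE; limma adjusted p = 6.75e-10). It ranked 6 among all entries in each papilla library and 77 to 82 in matrix libraries. miR-199a-3p is known to repress MTOR and MET in several cell types. In mammals the 3p arms of the miR-199a and miR-199b hairpins have the same sequence, so this entry does not tell the hairpins apart.

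The 5p side was read from entries with 1 seed. miR-199b was at 3725, 3585 and 3568 RPM in papilla replicates 1 to 3 and at 46.4, 44.8 and 54.2 RPM in matrix replicates 1 to 3. Matrix replicate 3 was the highest of its group, and no matrix library came near a papilla one. The mean difference was 74.8-fold (log2 change 6.20 ± 0.08, SE; limma adjusted p = 6.75e-10).

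miR-199a-5p, which is known to act on HIF1A and caveolin, was lower than miR-199b in every library. It was at 2014, 1903 and 2072 RPM in papilla replicates 1 to 3 and at 29.7, 34.0 and 41.8 RPM in matrix replicates 1 to 3. Matrix replicate 3 was again the highest of its group. The mean difference was 56.8-fold, the smallest among the members (log2 change 5.80 ± 0.12, SE; limma adjusted p = 6.06e-09). When both entries of this seed were summed before the fit, the log2 change was 6.06.

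miR-214, which is known to repress EZH2, was at 476, 457 and 545 RPM in papilla replicates 1 to 3. In matrix replicates 1 to 3 it was at 6.80, 5.11 and 9.58 RPM, on 168, 125 and 230 reads. The matrix libraries varied more in proportion (SD 31.5% of the mean) than the papilla libraries (9.44%). The mean difference was 68.8-fold (log2 change 5.95 ± 0.19, SE; limma adjusted p = 8.01e-08). It ranked 63 to 68 in papilla libraries and 201 to 248 in matrix libraries.

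miR-199c was at 161, 130.2 and 134 RPM in papilla replicates 1 to 3 and at 1.26, 2.65 and 2.08 RPM in matrix replicates 1 to 3. The matrix values rest on 31, 65 and 50 reads, and replicate 1 was the lowest. The mean difference was 71.0-fold (log2 change 5.60 ± 0.18, SE; limma adjusted p = 8.30e-08). With a pseudocount of 10 in place of 1 the log2 change was 3.66 and the call stayed.

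miR-3120 was the least abundant member in both cell types. It was at 13.8, 12.95 and 15.01 RPM in papilla replicates 1 to 3, on 331, 310 and 364 reads. In matrix replicates 1 to 3 it was at 0.121, 0.286 and 0.292 RPM, on 3, 7 and 7 reads, so replicate 1 sat at that limit. The pooled reads, 1005 against 17, give a 60.0-fold difference with an exact 95% interval of 37.3 to 103, which covers counting error only. Its log2 change of 3.60 ± 0.10 (SE; limma adjusted p = 2.95e-08) depends on the pseudocount. It was 1.23 with a pseudocount of 10, and 5.85 and 5.97 with edgeR and DESeq2 on whole reads. On reads its fold thus lay within the range of the other members.

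**Figure D2:**
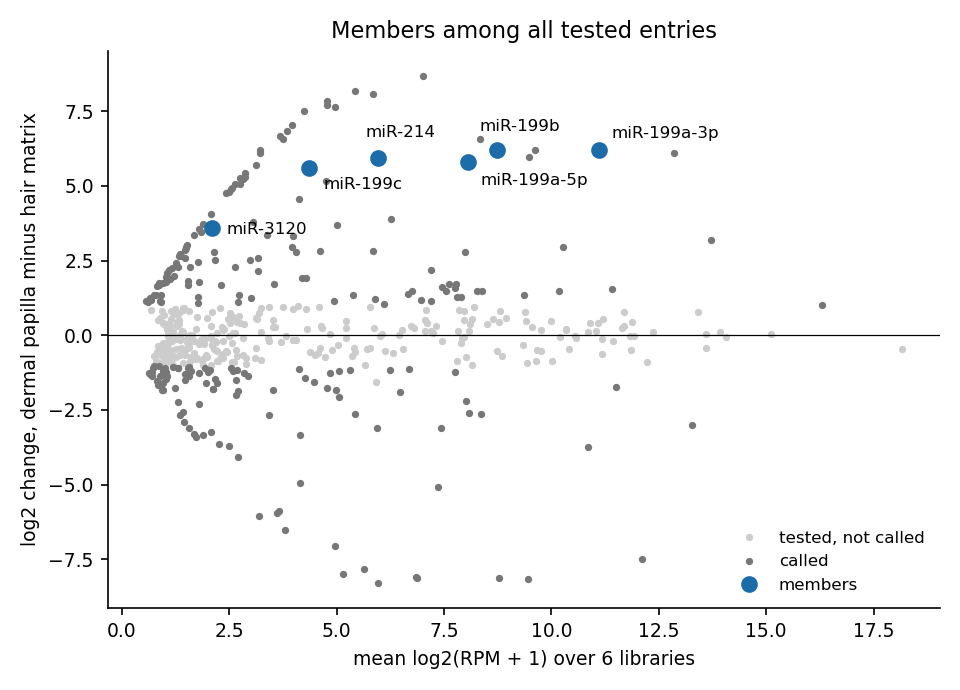
Log2 change (papilla minus matrix, limma on log2(RPM + 1)) against the mean log2(RPM + 1) over 6 libraries for the 503 entries tested, with called entries in dark grey and the 6 members in blue. Of the members, 5 lie between 5.60 and 6.20, and miR-3120 lies at 3.60, where its low level limits the log2 change.

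Ratios between entries of the same library do not depend on how libraries were scaled. On whole reads these ratios differed far less between the cell types than the levels did. miR-199a-3p took 75.0% ± 1.19 (SD, n = 3) of the reads of the 6 members in papilla cells and 73.5% ± 1.37 (SD, n = 3) in matrix cells. Apart from the arm ratio below, 5 ratios were tested by an exact two-sided permutation test, which cannot go below p = 0.1 with 3 against 3 libraries. The smallest Benjamini-Hochberg adjusted p over the 5 was 0.125.

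In mammals a copy of miR-199a shares a transcript with miR-214, but the entry miR-199a-3p does not tell the hairpins apart. For miR-214 against miR-199a-3p the ratio was 0.0247, 0.0234 and 0.0305 in papilla replicates 1 to 3. It was 0.0293, 0.0197 and 0.0342 in matrix replicates 1 to 3. The groups overlapped, and the log2 ratio differed by -0.24 on the scale with a pseudocount of 1 (exact permutation p = 0.4) and by -0.053 on whole reads (exact permutation p = 1). The reads of miR-214 thus stood at 1.97% to 3.42% of those of miR-199a-3p in all 6 libraries.

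miR-199b against miR-199a-5p, the pair that shares a seed, gave a ratio of 1.85, 1.88 and 1.72 in papilla replicates 1 to 3 and of 1.56, 1.32 and 1.30 in matrix replicates 1 to 3. Papilla libraries were higher without overlap, with a log2 difference of 0.40 (exact permutation p = 0.1, the smallest possible). The lean towards miR-199b was thus larger in papilla cells by more than the spread of these libraries, in a design that cannot reach 0.05.

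miR-199c against miR-199a-3p gave 0.00834, 0.00668 and 0.00753 in papilla replicates 1 to 3, and 0.00540, 0.0102 and 0.00743 in matrix replicates 1 to 3. On whole reads the groups overlapped, with a log2 difference of 0.0096 (exact permutation p = 0.9). With a pseudocount of 1, which is large beside the matrix level of miR-199c, the difference was -0.60 (exact permutation p = 0.1). This ratio was chosen after the sequences were seen, because miR-199c shares no seed with either arm of miR-199a.

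**Figure D3:**
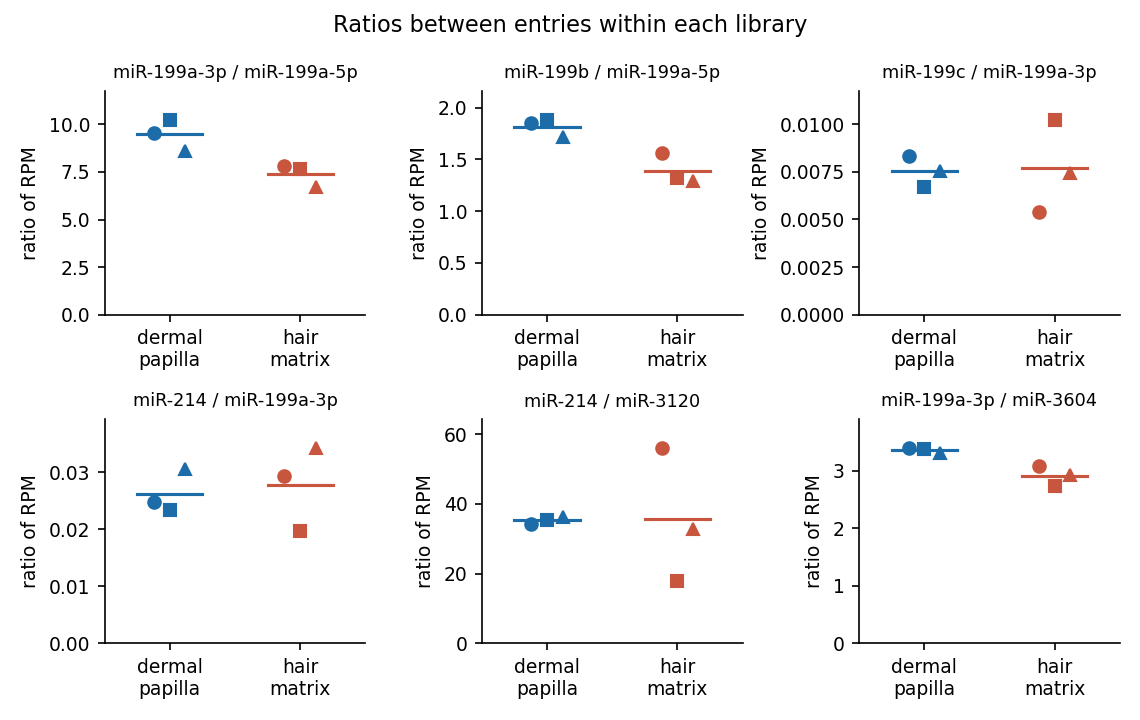
Ratios of RPM between named entries within each library on linear axes from 0, with 1 point per library, marker shape for the replicate number (circle, square and triangle for 1, 2 and 3) and a bar at the mean of 3 libraries. The ratios of miR-199a-3p to miR-199a-5p, miR-199b to miR-199a-5p and miR-199a-3p to miR-3604 are higher in papilla libraries without overlap, and the other 3 overlap.

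The 3p arm of miR-199a exceeded the 5p arm in every library. The 3p to 5p ratio was 9.57, 10.2 and 8.62 in papilla replicates 1 to 3 and 7.82, 7.64 and 6.71 in matrix replicates 1 to 3. The lowest papilla library stood just above the highest matrix library. The ratio was tested with limma over the 32 cattle-named hairpins with both arms tested. The log2 ratio of miR-199a was higher in papilla cells by 0.39 ± 0.12 (SE), with a 95% interval of 0.11 to 0.68 (limma adjusted p = 0.0279). Among the 32 hairpins, 62.5% passed the same threshold, and 31.2% passed it with the higher 3p to 5p ratio in papilla cells. The change in miR-199a was smaller in size than that of 17 other hairpins. Its neighbours in the order of changes were miR-424 and miR-365, with 0.46 and 0.43, and miR-7857 and miR-2299, with 0.38 and 0.37.

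This call did not hold under a change in how the 5p arm was counted. With miR-199b added to miR-199a-5p, the ratio was 3.36, 3.55 and 3.17 in papilla replicates 1 to 3 and 3.05, 3.29 and 2.92 in matrix replicates 1 to 3. These groups overlapped, and the log2 difference was 0.13 (limma adjusted p = 0.277). The call was also lost without any 1 of 5 libraries, although the log2 difference stayed at 0.33 to 0.46 over all 6 runs that left out a library. The adjusted p was 0.0943 without papilla replicate 1, 0.0659 without papilla replicate 2, 0.0555 without matrix replicate 1, 0.0558 without matrix replicate 2 and 0.0961 without matrix replicate 3. Without papilla replicate 3 it was 0.0232, and the call held.

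**Figure D4:**
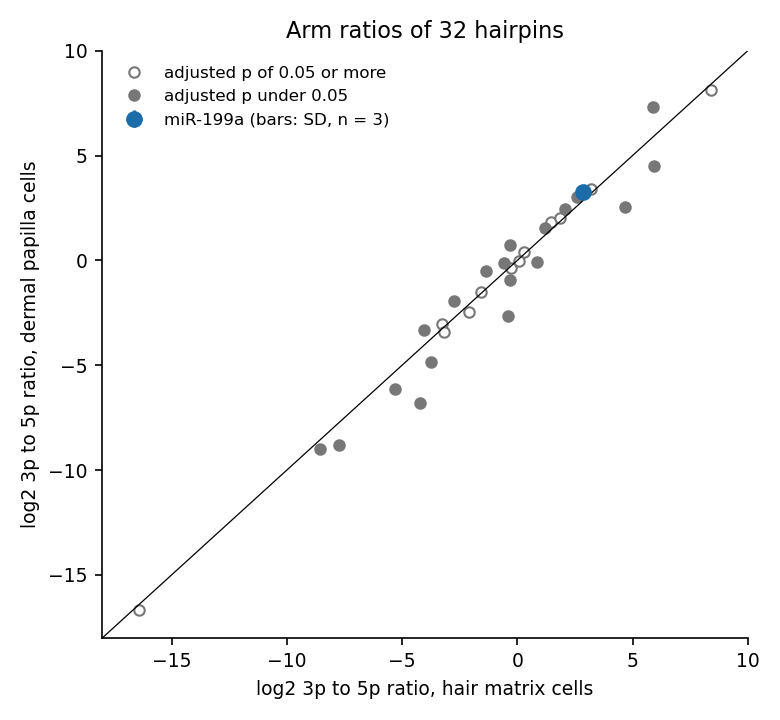
Mean log2 3p to 5p ratio of RPM + 1 in papilla cells against matrix cells for 32 hairpins, with the line of equal ratios and with miR-199a in blue (bars are the SD of 3 libraries). miR-199a lies slightly above the line, at 3.24 in papilla cells and 2.85 in matrix cells.

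Sense and antisense were compared first at miR-214. miR-214 had 34.4, 35.3 and 36.3 reads per read of miR-3120 in papilla replicates 1 to 3, and 56.0, 17.9 and 32.9 in matrix replicates 1 to 3. The papilla libraries were close to each other and the matrix libraries spread to both sides of them. miR-3120 made up 2.75% of the pooled reads of this pair in papilla cells (exact 95% interval 2.59% to 2.92%) and 3.15% in matrix cells (1.84% to 4.99%). A difference in this share was not detectable at this depth. On whole reads the log2 ratio differed by 0.14 (exact permutation p = 0.7). With a pseudocount of 1 the difference was 2.35 without overlap (exact permutation p = 0.1), since the pseudocount exceeds the level of miR-3120 in each matrix library.

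Opposite miR-199a-3p, the entry miR-3604 was at 5621 ± 204 RPM (SD, n = 3) in papilla cells and 88.8 ± 11.7 RPM (SD, n = 3) in matrix cells (log2 change 5.98, limma adjusted p = 1.92e-09). The ratio of miR-199a-3p to miR-3604 was 3.39, 3.37 and 3.31 in papilla replicates 1 to 3 and 3.09, 2.73 and 2.92 in matrix replicates 1 to 3. The papilla libraries were higher without overlap, by 0.22 on the log2 scale (exact permutation p = 0.1). When reads of both entries were summed, the log2 change was 6.15. miR-3604 took 22.9% of the pooled reads of the pair in papilla cells and 25.6% in matrix cells, while the levels of miR-199a-3p and miR-3604 differed 73.4-fold and 63.3-fold between the cell types.

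Other pairs in the table are complementary as well, and were looked at after the sequences were seen, with the pairs named here picked with their values known. Among cattle-named entries that were both tested, 7 pairs were complementary without mismatch over at least 21 bases. For the 6 with reads in both cell types, the ratio within the pair in matrix cells was 0.863 to 1.04 times that in papilla cells, and miR-199a-3p with miR-3604 had the lowest of these. let-7b stood at 3.96 and 4.13 times miR-3596 in papilla and matrix cells, and miR-26a at 3.29 and 3.30 times miR-26c. miR-152 stood at 6.26 and 6.22 times miR-148c. Pairs with a shorter match, of 18 to 20 bases, varied more. For the 6 of 7 such pairs with reads in both cell types, the ratio in matrix cells was 0.0562 to 1.202 times that in papilla cells. The ratio of miR-148a to miR-148d was 31678 in papilla and 8514 in matrix cells, and that of miR-2285au to miR-2285bg was 408 and 35.4. The lower entries of these pairs had few reads. miR-148d was at 1.28 and 0.519 RPM in papilla and matrix cells, and miR-2285bg at 0.236 and 2.44 RPM. The ratio of miR-3604 to the member miR-199c was 39.6 and 44.4. The parts that match length and low level have in this spread were not tested. The part that counting without strand has in miR-3604 or miR-3120 was not tested.

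**Figure D5:**
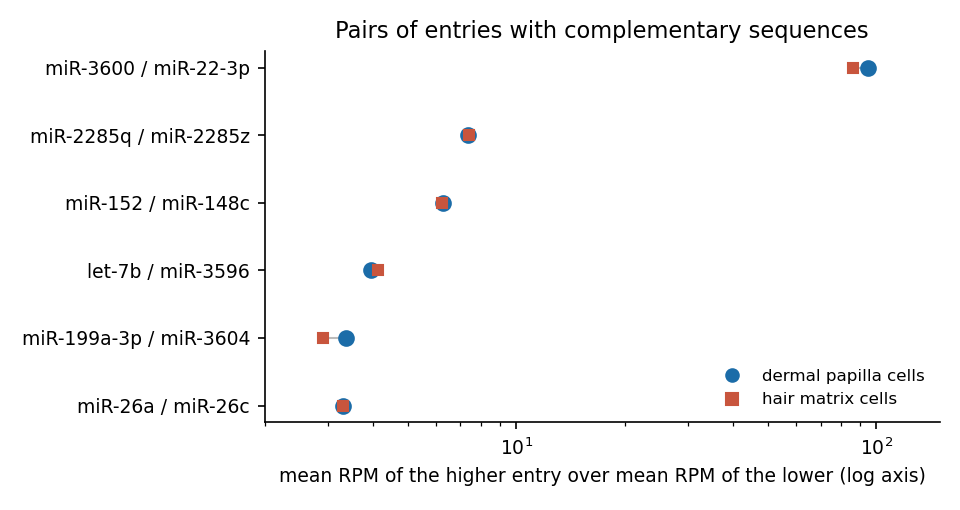
Ratio of mean RPM within 6 pairs of entries whose sequences are reverse complements over at least 21 bases, on a log axis, in papilla cells (circles) and matrix cells (squares). In each pair the markers nearly coincide, and the pair of miR-199a-3p and miR-3604 has the widest gap in proportion, 3.36 against 2.90.

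The miRNAs with profiles most like the members were found by distance between log2(RPM + 1) values over the 6 libraries, each centred on its own mean. For miR-199a-3p the nearest cattle-named entries outside the members were miR-10b at a distance of 0.18, miR-143 at 0.24, miR-433 at 0.27, miR-432 at 0.28 and miR-3604 at 0.29. Among the members, miR-199b lay at 0.17 and miR-3120 at 3.19. For miR-214 the same 5 entries were nearest, at 0.45 to 0.66. miR-433 and miR-432 were at 0.109 and 0.0822 RPM in matrix cells, so their place in this order depends on the pseudocount.

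Other miRNAs known from mesenchyme and fibroblasts were mostly higher in papilla cells. Of 8 tested entries of that list, 6 were called higher in papilla cells and 2 in matrix cells, and the median of their log2 changes was 2.25. Of all 503 entries tested, 127 were called higher in papilla cells and 100 in matrix cells. miR-143 was 68.6-fold, miR-10b 73.1-fold and miR-145 97.2-fold higher in papilla cells, near the fold of the miR-199 and miR-214 members. For miR-100 and miR-125b the fold was 2.93 and 7.77. The exceptions were miR-140 and miR-335, with a fold of 6.29 and 147 towards matrix cells. miR-335 was at 0.652 and 96.1 RPM in papilla and matrix cells, so its fold rests on a low papilla level (limma log2 change -5.88). It passed the filter through matrix libraries only, so its direction follows from the filter. The rule for naming did not cover miR-145, miR-140 and miR-335, which were picked with their values known. Of 9 tested entries known from fibrosis, where miR-199a-5p and miR-214 are also known, 1 was higher in papilla cells, miR-155 (named after its value was seen), and 4 in matrix cells. The other 4 had a limma p under 0.05 but stayed under 2-fold on the log2(RPM + 1) scale, and edgeR and DESeq2 each called 1 of them. Among these 4 was the abundant miR-21-5p, at a log2 change of -0.46 (limma adjusted p = 9.85e-06).

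The epithelial markers were read in the other direction. Their list, like the others, was chosen with earlier results of these data known, so it is no independent check of the labels. All 11 tested entries were called higher in matrix cells (their median log2 change was -7.98), where 100 of all 503 entries tested were. For miR-141 and miR-375 (named after their values were seen) the papilla means were 0.459 and 0.167 RPM. These entries passed the filter through matrix libraries only, so their direction follows from the filter. The summed level of the epithelial list was 397 to 472 RPM in papilla libraries and 84500 to 87216 RPM in matrix libraries. The summed mesenchyme list was at 79915 to 84205 RPM and 4517 to 4766 RPM. Blood markers summed to 20.3 to 23.0 RPM and 9.11 to 12.5 RPM, and 0 of 2 tested entries were called with limma. Both had an unadjusted and an adjusted limma p under 0.05 at less than 2-fold on the log2(RPM + 1) scale, and edgeR called 1 and DESeq2 2. By mean RPM, miR-451 was at 17.5 and 8.77 in papilla and matrix cells (2.00-fold), and miR-150 at 1.54 and 0.465 (3.31-fold). miR-150 passed the filter through papilla libraries only, so its direction follows from the filter. miR-126-3p, the endothelial marker tested, was at 3.66 and 2.81 RPM and was called by none of limma, edgeR and DESeq2 (limma unadjusted p = 0.0668). Both tested muscle entries were called, miR-1 towards papilla cells (2.60-fold) and miR-499 towards matrix cells (42.9-fold). Of 4 tested neural and melanocyte entries, 2 were higher in papilla cells and 1 in matrix cells. The most abundant of them, the neuronal miR-128, was 13.3-fold higher in matrix cells, at 503 RPM in papilla and 6704 RPM in matrix cells, and miR-204 was at 83.7 and 2.57 RPM. miR-129-3p, called higher in papilla cells, was at 7.03 and 0.477 RPM. It passed the filter through papilla libraries only, so its direction follows from the filter. This list summed to 621 to 650.4 RPM in papilla libraries and 6576 to 6880.4 RPM in matrix libraries. The part that any mixture of cell types has in the levels of the members was not tested.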

How the data were processed

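Per the labels' protocols, TruSeq small RNA libraries took 1 µg of RNA each. Tools listed in the submitters' processing notes, with no roles, are Trimmomatic, DESeq 1.20.0 and HISAT2 2.2.1.0. Build, miRNA reference, strand setting and treatment of reads with several matches are not given in the sources used. The values that the authors named TPM are RPM, since in each library 100% of values were whole multiples of 1 step within 0.001 read, from which whole reads were recovered. Tests used limma 3.58.1 in R 4.3.3 with a mean trend and cell type as the only term, and exact permutation tests in Python 3.11.15 for ratios. edgeR 4.0.16 and DESeq2 1.42.0 on whole reads called 143 and 151 entries higher in dermal papilla cells and 141 and 135 higher in hair matrix cells, against 127 and 100 with limma. Fits were also run on simulated data, and no result given here rests on those runs. All 6 members are named, with the 5 nearest profiles, up to 4 of the most abundant tested entries per list and hairpins next to miR-199a, and others are said to be named after their values were seen. Members, lists, tests and alternatives were chosen with earlier results of these data known. Alternatives covered pseudocount, filter, scaling, variance trend, replicate number, count models, summed entries and left-out libraries. Summing miR-199a-3p with miR-199c or miR-3604, ratios of whole reads, the ratios of miR-199c and miR-3604, the antisense search and fits with tested entries held fixed were added with the data in view. Hairpin sequences were not used here.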

Additional observations from a re-analysis of the deposited data

How the results depend on the processing

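All 165 alternative log2 changes of the members kept their direction and their call, but many of them could not differ. A filter of 10 RPM, no variance trend and the replicate block leave the log2 change as it was. Fits with tested entries held fixed repeat the log2 changes of the runs without 1 library. For miR-3120 the direction follows from the filter. It could not be tested without a papilla library under the filter, which left 5 members called there and 6 without a matrix library. Of 503 entries tested, 227 were called, and 117 with a pseudocount of 10 and 416 without a fold minimum. Where the number tested changed, calls were 127 of 244 with a filter of 10 RPM and 382 of 764 without the 5 most abundant entries. Without 1 library, calls were 166 to 191, with 429 to 438 entries tested. Calls higher in papilla cells were 127, and 77, 80, 212 and 65 to 128 with a pseudocount of 10, a filter of 10 RPM, no fold minimum and 1 library left out. The 65 holds without any 1 of the papilla libraries, since fewer entries pass the filter, and for the same reason those higher in matrix cells were 64, 60 and 61 without matrix replicate 1, 2 or 3. The split of 127 higher in papilla and 100 in matrix cells became 109 and 137 after median centring, which moved the median of all entries from -0.01 to -0.29, and 155 and 227 without the 5 most abundant entries. Across the scalings miR-199a-3p stayed at 5.92 to 6.21 and miR-214 at 5.63 to 5.96, whereas miR-199c ranged from 5.32 to 5.84 and miR-3120 from 3.12 to 4.76. The arm difference of miR-199a was 0.13 with the 5p entries summed (adjusted p = 0.277) and 0.33 to 0.46 without 1 library (adjusted p 0.0232 to 0.0961). Without 1 library the log2 differences of the ratios were 2.13 to 2.52 for miR-214 to miR-3120, -0.44 to -0.10 for miR-214 to miR-199a-3p, 0.35 to 0.48 for miR-199b to miR-199a-5p, -0.72 to -0.45 for miR-199c to miR-199a-3p and 0.17 to 0.26 for miR-199a-3p to miR-3604. The difference for miR-199c turned from -0.60 to 0.0096 without a pseudocount. Same-numbered libraries deviated from their group means with correlations of 0.14, 0.08 and -0.27, and papilla replicate 3 correlated best with matrix replicate 1. With 3 libraries per group these correlations depend on each other, so they cannot tell whether the numbers pair the samples. With the replicate number as a block 228 entries were called, and the arm difference was 0.39 (adjusted p = 0.0326). Depth limits miR-3120 most, at 3 to 7 reads per matrix library.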

Other observations

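Of the 7 pairs of entries complementary over at least 21 bases, 2 are described here by their levels. miR-3600 was at 2511 RPM in papilla cells and 1899 RPM in matrix cells, 94.9 and 86.2 times its complement miR-22-3p, which was at 26.4 and 22.0 RPM. miR-382, of the imprinted DLK1-DIO3 cluster, was at 129 RPM in papilla cells, 60.7 times its complement miR-3578. In matrix cells miR-382 itself was at 0.274 RPM, too low for miR-3578 to be seen at that ratio. No read of miR-3578 was found in matrix libraries. The table holds 101 pairs of entries that are complementary without mismatch over at least 18 bases, of which 14 had cattle names and were tested on both sides.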
